A study of Mus musculus with 24 samples.

Results

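Meiotic and germline genes were followed in mouse embryonic stem cells labelled as Smad2 knockout. The set was a list of 48 gene symbols covering germ cell regulators, the piRNA pathway, the meiotic chromosome axis, recombination and later germ cell proteins, and 47 of them could be read by symbol among the 19780 genes of the control table and the 19979 genes of the paused table. Spo11, which codes for the enzyme that cuts DNA to start meiotic recombination, was not analysed here. The list was put together with results of these data known, so the counts and changes below describe the list and are no independent evidence of its direction.

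All libraries came from E14 cells, an established mouse embryonic stem cell line, grown on gelatin with serum and leukaemia inhibitory factor. Poly(A) RNA was sequenced from 6 groups of 4 libraries: wild type, Smad2_KO1 and Smad2_KO2, each in control medium or after 12 h with the mTOR inhibitor INK128 at 200 nM, a treatment that brings the cells into a paused, diapause-like state. Each knockout genotype is a single cell line, so other differences between the lines cannot be told apart from the loss of Smad2. Libraries of the same line are not replicates of the genotype, and the SEs and p-values do not measure the spread between independent lines. The data hold 1 results table per condition, with a mean normalized count, a log2 change, its standard error (SE) and an adjusted p for each gene. Neither table lists single libraries: the level in each replicate, the overlap of the groups and the behaviour of either knockout line alone cannot be shown, and the SE is the only measure of error.

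Germline genes are the genes whose products make gametes. Many of them are kept silent outside the germ line by methylation of their promoters and by a Polycomb complex, PRC1.6, which contains the E-box factors MGA and MAX and the factor E2F6. Embryonic stem cells, which stand close to the founders of the germ line, transcribe a part of this programme at low to moderate levels. In meiosis, STRA8 and MEIOC drive entry, cohesins and HORMA-domain proteins build the chromosome axis, the synaptonemal complex joins homologous chromosomes, and the recombination proteins repair the programmed breaks. In the male germ line, piRNAs are small RNAs that guide PIWI proteins against transposons.

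Neither table says which genotype was divided by which. Changes are given as knockout relative to wild type, since the targeted gene Smad2 came out lower in both under that reading. The log2 change of Smad2 was -0.35 (SE 0.07) in control and -0.63 (SE 0.06) in paused cells of the authors' deposited tables. Under that reading the knockout libraries held 78.6% and 64.6% of the wild-type Smad2 mRNA level. With the opposite reading every direction given here would turn. Neither the deleted part of the gene nor SMAD2 protein was looked at, so the loss itself is taken from the labels. Markers of embryonic stem cells (Pou5f1, Sox2, Nanog, Zfp42, Esrrb, Klf4, Tfcp2l1 and Dppa5a) were all present in the authors' deposited tables, with mean normalized counts of 8797 to 51710 in control and 14880 to 44100 in paused cells. Of these 8, the authors' deposited tables had 2 higher and 1 lower in control and 2 higher and 0 lower in paused cells. At the same adjusted p below 0.05, 19.5% of all genes were higher and 21.9% lower in control, and 20.5% and 22% in paused cells.

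Most of the germline list was higher in the knockout in both conditions. A change is named as called where the adjusted p of the authors' deposited table lies below 0.05. In control cells this held for 36 of 47 genes, against 41.4% of all genes there. Of these, 28 rose, where 19.5% of all genes were called higher, and 8 fell, where 21.9% were called lower. Paused cells had 39 of 47 called in the authors' deposited table (42.6% of all genes), with 36 higher (20.5% of all genes) and 3 lower (22% of all genes). The median log2 change of the 47 genes in the authors' deposited tables was 0.46 in control and 0.56 in paused cells, while that of all genes was 8.47e-04 and -0.00159. As the list was chosen with these contrasts in view, nothing is read from the shares.

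Called higher in both of the authors' deposited tables were 28 of 47 genes (14.3% of the 19134 genes in both tables), and lower in both were Tdrd5, Tdrd12 and Syce2 (16% of all genes). Another 8 genes were called higher in paused cells alone, namely Nobox, Mov10l1, Tex19.1, Tex12, Rec8, Dmc1, Msh5 and Rnf212. Called lower in control cells alone were 5 genes, namely Ddx4, Tdrd1, Pnldc1, Sycp3 and Mei4. The matching shares of all genes were not taken, so nothing is read from these counts. Figla, Tex19.2 and Mei1 were called in neither of the authors' deposited tables (44.2% of all genes). No gene of the list was called in opposite directions, as against 0.162% of all genes. The rise was called and reached 2-fold or more for 8 genes in control cells (4.46% of all genes) and for 15 in paused cells (4.89%) of the authors' deposited tables. Such a rise was present in both conditions for Stra8, Dazl, Asz1, Fkbp6, Hormad2, Smc1b, Brdt and Tex101, 8 of 47 genes (2.44% of all genes). If the genotypes are scaled to the same total, Tex19.1 (adjusted p 0.0288), Mov10l1 (0.0153) and Tex12 (0.0421) are called higher in control cells too, and Pnldc1 (0.132) and Mei4 (0.0504) are no longer called lower there, computed from the authors' deposited table. A call in 1 condition alone does not show that the changes differ. That was tested separately, as given further below.

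**Figure D1:**
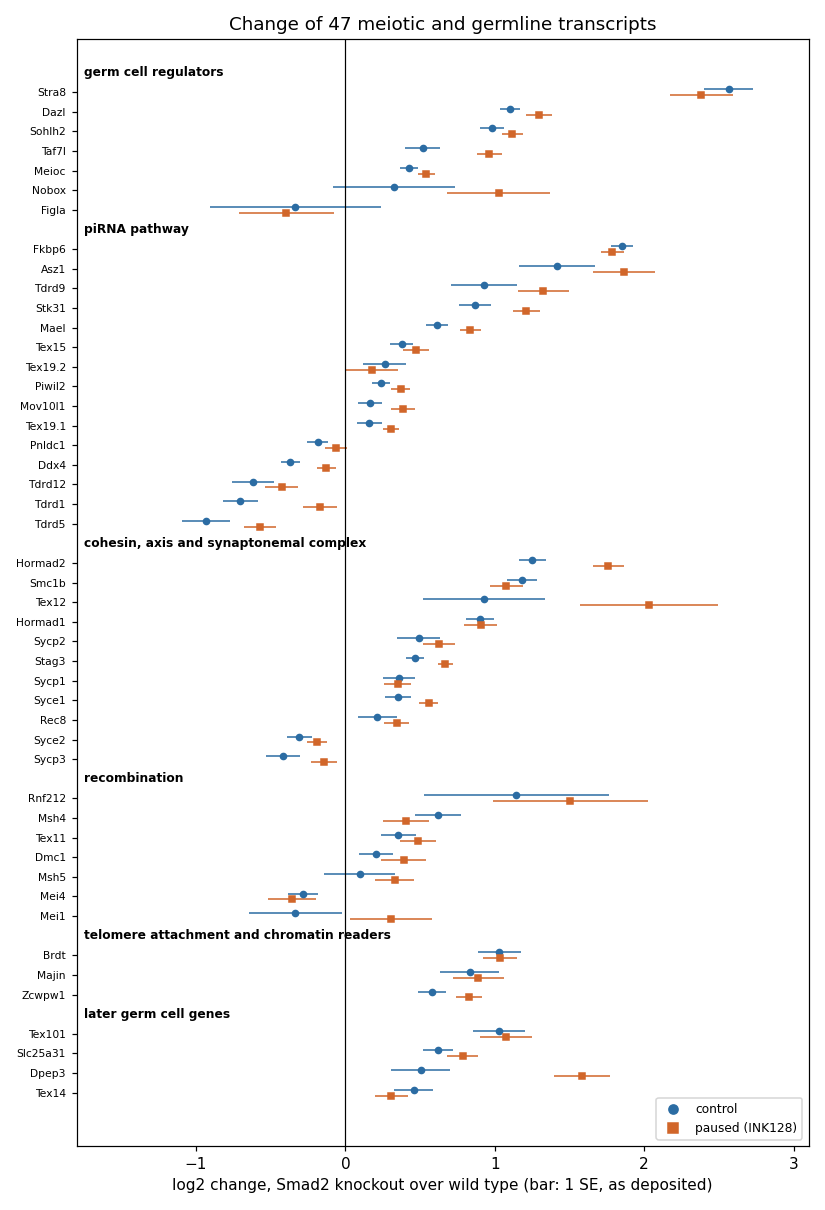
Log2 change of each of the 47 genes, Smad2 knockout over wild type, in control cells (circles) and paused cells (squares), grouped by role; bars are 1 SE as deposited. Stra8 lies furthest to the right at 2.57 and 2.38, and Tdrd5 furthest to the left at -0.93 and -0.57.

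Among the germ cell regulators, 5 of 7 rose in control and 6 of 7 in paused cells of the authors' deposited tables, and 0 fell (all genes: 19.5% higher and 21.9% lower in control, 20.5% and 22% in paused cells). Stra8, which is switched on by retinoic acid and starts meiosis, had the largest change of the whole list, 2.57 (SE 0.16) in control and 2.38 (SE 0.21) in paused cells of the authors' deposited tables, or 5.92-fold and 5.21-fold. Its mean normalized count in the authors' deposited tables was 912 and 645. Dazl, an RNA-binding protein that licenses germ cells for meiosis, rose 2.14-fold in control and 2.46-fold in paused cells of the authors' deposited tables, with log2 SEs of 0.07 and 0.09. The rise of Sohlh2, a basic helix-loop-helix factor of differentiating spermatogonia and oocytes, was 0.98 (SE 0.08) and 1.12 (SE 0.07) in the authors' deposited tables, with mean counts of 1339 and 2670. These 3 genes had SEs far below their changes.

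Meioc, a partner in prolonging meiotic prophase, rose by 0.42 (SE 0.06) and 0.54 (SE 0.06) in the authors' deposited tables. Taf7l, a germ cell form of a subunit of the basal transcription machinery, rose by 0.52 (SE 0.12) in control and 0.96 (SE 0.08) in paused cells of the authors' deposited tables. The oocyte factors were scarce. Nobox, a homeobox gene of oocytes, had mean counts of 9.24 and 16.6 in the authors' deposited tables and was called in paused cells (1.03, SE 0.34) but not in control cells (0.32, SE 0.41). Figla, which activates the zona pellucida genes, had mean counts of 5.74 and 16.7 and uncalled values of -0.34 (SE 0.57) and -0.40 (SE 0.32) in the authors' deposited tables.

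Of the 15 piRNA pathway genes, 7 rose and 5 fell in control cells, where 19.5% and 21.9% of all genes did, and 9 rose and 2 fell in paused cells, where 20.5% and 22% did, in the authors' deposited tables. Fkbp6, a co-chaperone needed for piRNA loading, rose by 1.85 (SE 0.07) in control and 1.79 (SE 0.08) in paused cells of the authors' deposited tables, or 3.61-fold and 3.45-fold. Asz1, a mitochondrial scaffold of germ granules, rose by 1.42 (SE 0.25) and 1.87 (SE 0.21) in the authors' deposited tables from mean counts of 32.7 and 60.9. Fkbp6 had similar values in both conditions, and Asz1 the wider SEs of the pair.

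Tdrd9, an RNA helicase with a Tudor domain, rose by 0.93 (SE 0.22) and 1.32 (SE 0.17) in the authors' deposited tables, again at low counts (35.2 and 94.5). Stk31, a Tudor-domain kinase-like protein, rose by 0.87 (SE 0.11) and 1.21 (SE 0.09) in the authors' deposited tables. Mael, which acts in transposon silencing, rose by 0.61 (SE 0.07) and 0.84 (SE 0.07) in the authors' deposited tables. The PIWI gene Piwil2 changed less, by 0.24 (SE 0.06) and 0.37 (SE 0.06) in the authors' deposited tables, and Tex15, a factor in piRNA-directed methylation, by 0.38 (SE 0.08) and 0.47 (SE 0.09).

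Other genes of the group had values below 0. Tdrd5 fell by 0.93 (SE 0.16) in control and by 0.57 (SE 0.11) in paused cells of the authors' deposited tables, the lowest value of the list in each. Tdrd12, a well expressed gene with mean counts of 2513 and 2212, fell by 0.62 (SE 0.14) and by 0.43 (SE 0.11) in the authors' deposited tables. Tdrd1, a scaffold that binds PIWI proteins, fell by 0.70 (SE 0.12) in control cells and had an uncalled -0.17 (SE 0.12) in paused cells of the authors' deposited tables. The helicase gene Ddx4, known as mouse vasa homolog, fell by 0.37 (SE 0.07) in control cells, with -0.13 (SE 0.07) uncalled in paused cells of the authors' deposited tables. The trimming enzyme gene Pnldc1 fell by 0.19 (SE 0.07) in control cells of the authors' deposited table and was uncalled at -0.06 (SE 0.07) in the paused one.

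Tex19.1 and Tex19.2 are neighbouring paralogs of similar sequence that act against transposons, and how reads were shared between them is not stated. In the authors' deposited tables Tex19.1 had 0.16 (SE 0.08, uncalled) in control and 0.31 (SE 0.05, called) in paused cells, and Tex19.2 was uncalled in both (0.26, SE 0.14, and 0.18, SE 0.18). The RNA helicase gene Mov10l1, which feeds precursors into the piRNA pathway, was uncalled in control (0.16, SE 0.08) and called in paused cells (0.38, SE 0.08) of the authors' deposited tables.

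For the cohesin, axis and synaptonemal complex genes the authors' deposited tables had 7 of 11 higher and 2 lower in control cells, and 9 higher and 1 lower in paused cells (all genes: 19.5% higher and 21.9% lower in control, 20.5% and 22% in paused cells). Hormad2, which watches over unsynapsed chromosomes, rose by 1.25 (SE 0.09) in control and 1.76 (SE 0.10) in paused cells of the authors' deposited tables, or 2.38-fold and 3.39-fold. Its relative Hormad1 rose by 0.90 (SE 0.10) and 0.91 (SE 0.11) in the authors' deposited tables. The rise of Smc1b, a meiotic cohesin subunit, was 1.18 (SE 0.10) and 1.08 (SE 0.11) in the authors' deposited tables. Stag3, another meiotic cohesin subunit and with mean counts of 1872 and 4444 a well expressed one, rose by 0.46 (SE 0.06) and 0.67 (SE 0.05) in the authors' deposited tables.

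Rec8, the meiotic kleisin, had an uncalled 0.21 (SE 0.13) in control and a called 0.34 (SE 0.08) in paused cells of the authors' deposited tables. Within the synaptonemal complex itself the directions differed. Syce1 and Sycp1, of the central element and the transverse filaments, rose by 0.35 (SE 0.09) and 0.36 (SE 0.11) in control cells of the authors' deposited table, and Sycp2, of the lateral elements, by 0.49 (SE 0.14). In paused cells of the authors' deposited table Syce1 rose by 0.56 (SE 0.06), Sycp1 by 0.35 (SE 0.09) and Sycp2 by 0.63 (SE 0.11). Sycp3, the other lateral element protein, fell by 0.42 (SE 0.11) in control cells of the authors' deposited table and had an uncalled -0.14 (SE 0.09) in the paused one. Syce2 fell by 0.31 (SE 0.08) and by 0.19 (SE 0.07) in the authors' deposited tables. Tex12, the partner of SYCE2 in the central element, was measured at mean counts of 11.1 and 11.5, with an uncalled 0.93 (SE 0.41) in control and a called 2.03 (SE 0.46) in paused cells of the authors' deposited tables.

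For the recombination genes the authors' deposited tables had 2 of 7 higher and 1 lower in control cells, and 5 higher and 0 lower in paused cells. Among all genes 19.5% were higher and 21.9% lower in control, and 20.5% and 22% in paused cells. Msh4, which stabilises crossover intermediates, rose by 0.62 (SE 0.15) and 0.41 (SE 0.15), and Tex11, an X-linked crossover factor, by 0.36 (SE 0.11) and 0.48 (SE 0.12) in the authors' deposited tables. Dmc1, the meiotic strand exchange protein, was uncalled in control (0.21, SE 0.11) and called in paused cells (0.39, SE 0.15) of the authors' deposited tables, and so was Msh5, the partner of MSH4 (0.09, SE 0.24, and 0.33, SE 0.13). Mei4, needed for break formation, fell by 0.29 (SE 0.10) in control cells, with an uncalled -0.36 (SE 0.16) in paused cells of the authors' deposited tables. Mei1, another gene of break formation, was uncalled in both of the authors' deposited tables (-0.33, SE 0.31, and 0.30, SE 0.27). Rnf212, a crossover ligase, had the lowest counts of the list in each of the authors' deposited tables (5.01 and 7.84), with 1.15 (SE 0.62, uncalled) and 1.51 (SE 0.52, called).

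All 3 genes for telomere attachment and chromatin reading and all 4 later germ cell genes rose in both of the authors' deposited tables, where 14.3% of the 19134 shared genes did. Brdt, a testis bromodomain protein, rose by 1.03 (SE 0.14) and 1.04 (SE 0.12) in the authors' deposited tables. Majin, which ties telomeres to the nuclear envelope, rose by 0.83 (SE 0.20) and 0.89 (SE 0.17), and Zcwpw1, a histone methylation reader of meiotic hotspots, by 0.58 (SE 0.10) and 0.83 (SE 0.09) in the authors' deposited tables. Of these, Zcwpw1 had the highest mean counts in the authors' deposited tables, 1508 and 2548.

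Tex101, a surface glycoprotein of germ cells, rose by 1.03 (SE 0.17) and 1.07 (SE 0.17) in the authors' deposited tables. Slc25a31, a germ cell ADP/ATP carrier, rose by 0.62 (SE 0.10) and 0.78 (SE 0.11), and Tex14, of the intercellular bridges, by 0.46 (SE 0.13) and 0.31 (SE 0.11) in the authors' deposited tables. Dpep3, a testis dipeptidase-like protein, rose by 0.50 (SE 0.20) in control and by 1.58 (SE 0.19) in paused cells of the authors' deposited tables, at mean counts of 47.0 and 65.9.

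Whether a change differed between the conditions was then tested, as the paused change minus the control change over the combined SE, with a two-sided normal p adjusted by Benjamini-Hochberg over all 19134 genes. The difference was called for 2 of 47 genes, against 1.44% of all genes. Dpep3 had a difference of 1.08 (SE 0.27, adjusted p 0.0122) and Hormad2 one of 0.51 (SE 0.14, adjusted p 0.0210), both toward the larger rise in paused cells. Neither call held at an adjusted p under 0.01, against a difference of at most 1.2-fold, or after the statistic was divided by its middle spread. Tdrd1 (0.53, SE 0.16, adjusted p 0.0644) and Taf7l (0.45, SE 0.14, adjusted p 0.0833) followed without passing.

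For Stra8 the difference was -0.18 (SE 0.27, adjusted p 0.854) and for Fkbp6 -0.06 (SE 0.11, adjusted p 0.879). The paused value was above the control value in 38 of 47 genes, against 9817 of all 19134 genes. The 38 include Tdrd5, Tdrd12 and Tdrd1, which were nearer to 0 in paused cells. The median difference of the list was 0.16, and that of all genes was 0.00557. The tables were normalized separately, and with equal summed counts in both genotypes the median difference was 0.14. Across the 47 genes the changes of the conditions had a Pearson r of 0.918, against 0.818 across all 19134 genes. Genes are not independent replicates, and no test was made of it.

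**Figure D2:**
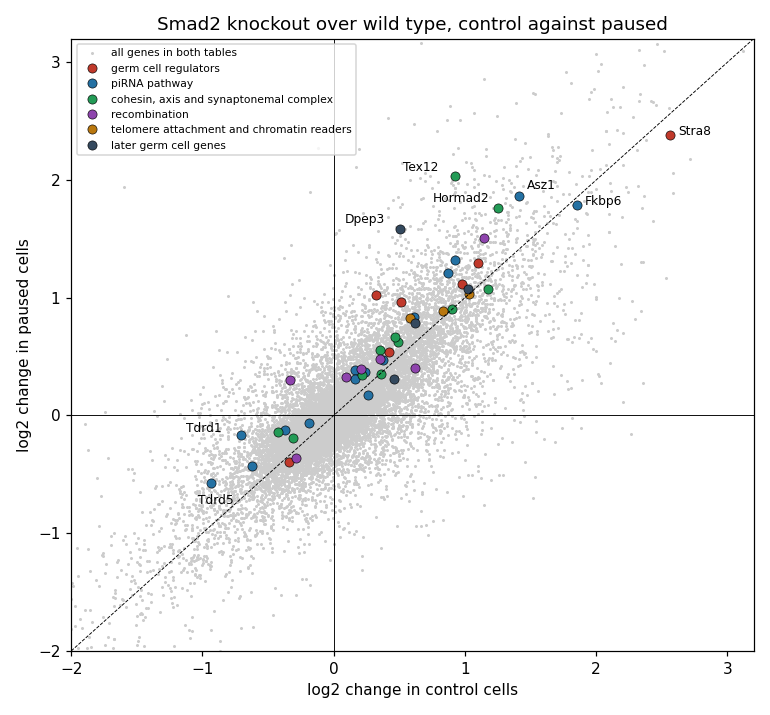
Log2 change in paused cells against that in control cells for all genes in both tables (grey) and for the 47 genes coloured by role, with the line of equal change dashed and both axes limited to between -2 and 3.2. Most members lie in the upper right, 38 of 47 above the dashed line. Tex12 lies furthest above it (difference 1.11, not called), then Dpep3 (1.08), with Hormad2 (0.51) nearer to the line.

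The level of a gene over the libraries of a table was compared between the tables as its share of the summed mean counts (in ppm, where 1 ppm is a share of 1e-06). Where genes are compared, this share was divided by the length in kilobases (kb) of the longest GENCODE M21 transcript. These levels average wild type and knockout, come from tables normalized separately and have no error of their own, so no test was made. The share was higher in the paused table for 36 of 47 genes, with a median ratio of 1.52 against 1.06 for all genes. It was at least 2-fold higher for 11 genes, 23.4% of the list against 8.53% of all genes, and at least 2-fold lower for Tex19.1 and Mei4, 4.26% against 5.28%.

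By ratio Taf7l came first, at 6.37, from 4.78 ppm in control to 30.4 ppm in paused cells, computed from the mean counts of the authors' deposited tables. Sycp3 went from 8.55 to 30.2 ppm and Stag3 from 40.6 to 100 ppm in the authors' deposited tables, whereas Tex19.1 went from 84.5 to 31.2 ppm. Some genes that were higher in the paused table, such as Sycp3, were thus lower in the knockout or uncalled, so this order is not that of the knockout changes. Per kb of transcript, Tex19.1 was the most abundant gene of the list in the authors' deposited control table (48.4 ppm per kb), followed by Syce1 (16.9), Syce2 (16.7) and Tdrd12 (14.9). The authors' deposited paused table was led by Sycp3 (25.8), Sohlh2 (25.5), Fkbp6 (23.9) and Syce1 (21.9 ppm per kb). The recombination genes of the list were low throughout: their highest member, Tex11, had 1.82 and 1.61 ppm per kb in the authors' deposited tables. Recombination genes outside the list are not covered by this order. Without values per library, neighbours in these orders cannot be separated.

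**Figure D3:**
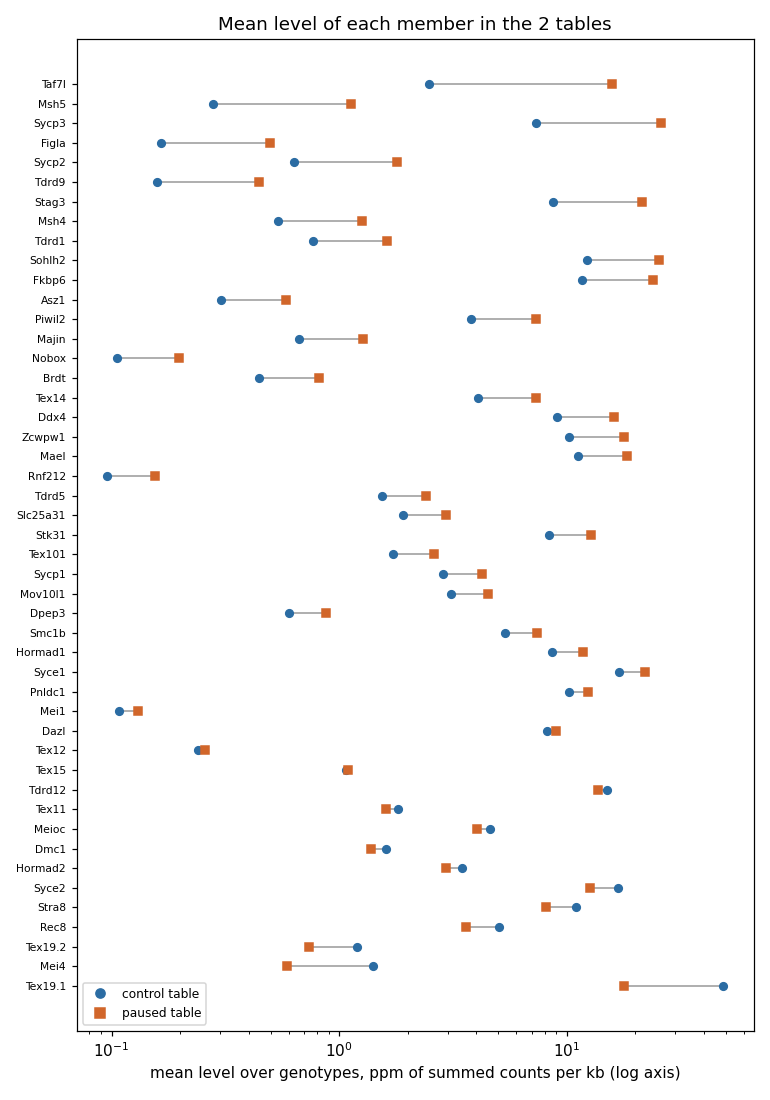
Mean level of each of the 47 genes over the libraries of the control table (circles) and of the paused table (squares), in ppm of the summed mean counts per kb of transcript on a log axis, ordered by the ratio of paused to control. Taf7l stands at the top of the order and Tex19.1 at the bottom, with 36 of 47 genes higher in the paused table.

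Genes of the same pathways outside the list were taken from lists made by function, though with results of these data known. The shares of all genes to set beside these counts are 19.5% higher and 21.9% lower in control and 20.5% and 22% in paused cells. Of 14 other piRNA pathway genes, the authors' deposited tables had 6 higher and 2 lower in control cells and 4 higher and 0 lower in paused cells, with medians of 0.14 and 0.23. Tdrd6, a Tudor-domain germ granule gene at mean counts of 9.92 and 11.5, fell by 1.17 (SE 0.49) in control cells and had an uncalled -0.19 (SE 0.35) in paused cells of the authors' deposited tables. Gpat2, a mitochondrial acyltransferase-like protein of the pathway, rose by 1.15 (SE 0.09) and 1.14 (SE 0.08), and Gtsf1, a PIWI cofactor, by 0.67 (SE 0.14) and 0.84 (SE 0.15) in the authors' deposited tables. Of 30 other meiotic genes, 10 were higher and 1 lower in control cells and 16 higher and 1 lower in paused cells of the authors' deposited tables, with medians of 0.24 and 0.27. Meikin, a kinetochore protein of the first meiotic division, rose by 2.29 (SE 0.84) and 3.40 (SE 0.81) in the authors' deposited tables, but from mean counts of 4.40 and 7.44. Rec114, a partner of MEI4 in break formation, rose by 0.76 (SE 0.09) and 1.12 (SE 0.12), and Terb2, a partner of MAJIN at telomeres, by 0.93 (SE 0.14) and 1.07 (SE 0.14) in the authors' deposited tables.

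Other stages of the germ line were read from 3 further lists. Of 7 regulators of primordial germ cells measured, 2 were higher and 3 lower in control cells and 0 higher and 2 lower in paused cells of the authors' deposited tables (all genes: 19.5% higher and 21.9% lower in control, 20.5% and 22% in paused cells). Nanos3, which protects early germ cells, fell by 0.64 (SE 0.18) and by 1.06 (SE 0.16), and Dppa3, a factor of early germ cells and eggs, fell by 0.50 (SE 0.13) and by 0.62 (SE 0.14) in the authors' deposited tables. Prdm14, a regulator of both stem cells and early germ cells, rose by 0.39 (SE 0.09) in control cells and had an uncalled 0.22 (SE 0.11) in paused cells of the authors' deposited tables. Of 10 postmeiotic spermatid genes only Tssk6 and Gapdhs were measured in each table, with mean counts of 52.3 to 116 in the authors' deposited tables, and Gapdhs fell by 0.56 (SE 0.15) in paused cells. The others of that list, the protamine and transition protein genes among them, were not analysed here. Oocyte genes had 3 of 6 higher in control and 4 of 9 higher in paused cells of the authors' deposited tables, and 0 lower. Bmp15, an oocyte growth factor, rose by 0.97 (SE 0.34) and 1.34 (SE 0.25) from mean counts of 17.0 and 37.6 in the authors' deposited tables. Kit is counted among the oocyte genes, the regulators of primordial germ cells and the genes of differentiating spermatogonia given below. Sohlh1 is in the oocyte and spermatogonia lists, so the counts of these lists are not separate.

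Silencing factors of germline promoters were given by 3 lists. For the 14 genes of the PRC1.6 complex the authors' deposited tables had 1 higher and 5 lower in control cells and 3 higher and 4 lower in paused cells, with medians of -0.02 and 0.01 (all genes: 19.5% higher and 21.9% lower in control, 20.5% and 22% in paused cells). Tfdp1, the E2F partner, fell by 0.59 (SE 0.06) and by 0.45 (SE 0.06), Yaf2 fell by 0.62 (SE 0.15) in control cells and had an uncalled -0.21 (SE 0.12) in paused cells, and Cbx3 fell by 0.40 (SE 0.06) and by 0.24 (SE 0.04) in the authors' deposited tables. E2f6 fell by 0.33 (SE 0.06) and by 0.16 (SE 0.06) in the authors' deposited tables, and Pcgf6, the subunit that defines the complex, fell by 0.14 (SE 0.05) in control cells and had 4.50e-04 (SE 0.03, uncalled) in paused cells. E2f6 and Pcgf6 are named here after their values were seen, as are Mga and Max, which were uncalled in control cells (0.17, SE 0.08, and 0.03, SE 0.04) and higher in paused cells (0.25, SE 0.05, and 0.16, SE 0.04) in the authors' deposited tables. L3mbtl2, a chromatin-binding subunit also named after its values were seen, was uncalled in control cells (-0.04, SE 0.04) and rose by 0.19 (SE 0.03) in paused cells of the authors' deposited tables. Its difference between the conditions was 0.24 (SE 0.05, adjusted p 0.00149 over all 19134 genes).

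Of 9 genes for DNA methylation and its removal, the authors' deposited tables had 2 higher and 2 lower in control cells and 5 higher and 1 lower in paused cells (all genes: 19.5% higher and 21.9% lower in control, 20.5% and 22% in paused cells). Tet2, a demethylating dioxygenase, rose by 0.59 (SE 0.07) and 0.28 (SE 0.07) in the authors' deposited tables. Its relative Tet3 (0.40, SE 0.10) and the methyltransferase cofactor Dnmt3l (0.39, SE 0.07) were called in paused cells alone of the authors' deposited tables. Of 8 genes for silencing through histone H3 lysine 9, 2 were higher and 2 lower in control cells and 4 higher and 2 lower in paused cells of the authors' deposited tables. Suv39h2 and Suv39h1, which methylate that residue, fell in both of the authors' deposited tables, by 0.22 (SE 0.07) and by 0.34 (SE 0.07), and by 0.27 (SE 0.06) and by 0.30 (SE 0.05). Atf7ip, a cofactor of the methyltransferase SETDB1, rose by 0.30 (SE 0.07) and 0.27 (SE 0.05) in the authors' deposited tables, and Setdb1 itself, named after its values were seen, by 0.14 (SE 0.04) and 0.15 (SE 0.03). The part of these 3 lists in the germline values was not tested.

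**Figure D4:**
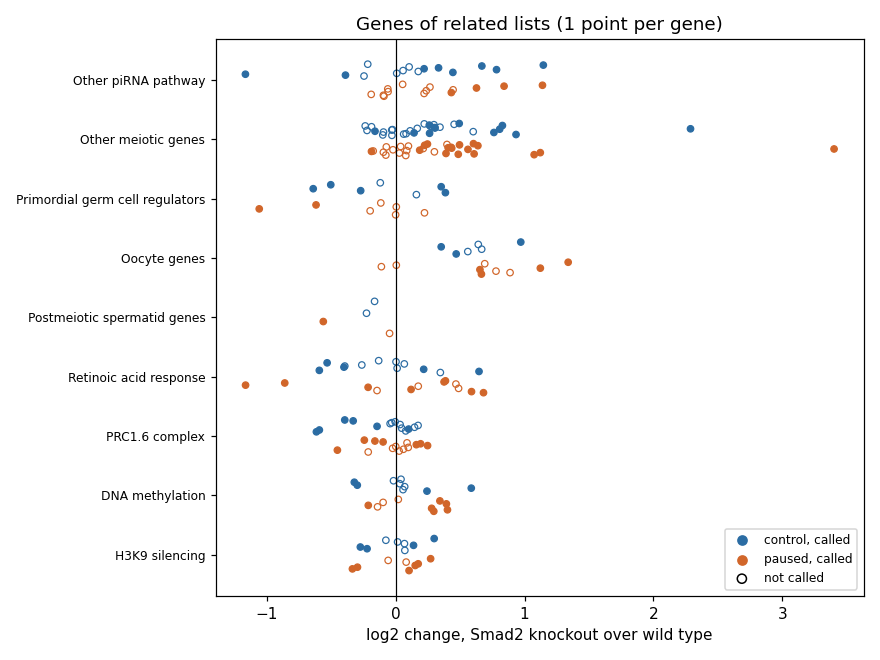
Log2 change of each measured gene of 9 related lists in control (blue) and paused cells (orange), filled where called and open where not. Other piRNA and meiotic genes lie mostly right of 0, Meikin furthest at 2.29 and 3.40, while the regulators of primordial germ cells and the PRC1.6 genes lie on both sides.

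Markers of 5 other cell types were looked at, and those of two-cell-like cells and primitive endoderm were mostly higher in the knockout (all genes: 19.5% higher and 21.9% lower in control, 20.5% and 22% in paused cells). Of 6 markers of two-cell-like cells, a rare state of these cultures, the authors' deposited tables had 5 higher in control and 4 higher in paused cells, and 0 lower, with medians of 0.67 and 0.58 and summed mean counts of 36353 and 12912. Zscan4c, the most abundant, rose by 0.75 (SE 0.11) and 0.65 (SE 0.16) in the authors' deposited tables. Of 5 primitive endoderm markers, 4 were higher in each of the authors' deposited tables and 0 lower, with summed mean counts of 792 and 1560; Sox17 had 2.19 (SE 0.31) and 1.28 (SE 0.32). Of 5 measured Sertoli cell markers, Dmrt1 and Gata1 were higher in each of the authors' deposited tables. Amh, the defining one, had mean counts of 24.8 and 21.2 and was uncalled. Markers of feeder fibroblasts mostly went the opposite way: 4 of 6 fell in control and 3 of 5 in paused cells, and 0 were called higher. Col1a1 had mean counts of 381 and 245 in the authors' deposited tables. Thy1, at mean counts of 336 and 459, was uncalled in both (-0.11, SE 0.12, and 0.18, SE 0.11). The cells were grown on gelatin, so which cells these transcripts came from is not known. Of 4 genes of differentiating spermatogonia, Stra8 itself among them, 2 were higher in control and 3 in paused cells of the authors' deposited tables, and 0 lower, with medians of 0.46 and 0.61. Sohlh1, at mean counts of 13.3 and 57.8, was uncalled in control (0.56, SE 0.35) and higher in paused cells (0.65, SE 0.20) of the authors' deposited tables. In bulk samples, more cells of a type and more RNA per cell cannot be told apart, and the part of these cell types in the germline values was not tested.

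Promoter sequences were read for features that the choice of the list did not use. RefSeq windows on GRCm38.p6, from 250 bases before to 50 bases after each start, were at hand for 42 of the 47 genes. Counting a gene if any of its starts qualified, 26 of 42 (61.9%) had the composition of a CpG island (GC of at least 50% and a ratio of observed to expected CpG of at least 0.6). That share was 58.3% among 14574 genes of the tables and 36% among 27025 genes with such a window. The 3 genes called in neither condition had 0 CpG island-like promoters, against 16 of 24 of those called higher in both, 5 of 7 of those called lower in either and 5 of 8 of the others. Of those 3, Figla (5.74 and 16.7) and Mei1 (20.6 and 24.0) had low mean counts. Over all genes with a window, 16.1% with a CpG island-like promoter and 24.2% of the others were called higher in the authors' deposited control table. In the paused one these shares were 17.7% and 24.6%. No test was made of them.

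The E-box CACGTG is the palindrome that MAX and its partners bind. It was found in 17 of 42 promoters (40.5%), against 10.7% of the genes of the tables and 8.09% of all genes with a window. Among CpG island-like promoters the share was 57.7% (15 of 26) against 13.1% of 8497 genes of the tables. Among the other promoters it was 12.5% (2 of 16) against 7.24% of 6077 genes. TCCCGC, read on both strands as a site of E2F factors, was in 18 of 42 (42.9%), against 33.9% of the genes of the tables. CAGACA, a SMAD-type element, was in 3 of 42 (7.14%, against 20.6%), and AGGTCA, a hexamer bound by nuclear receptors, was in 6 of 42 (14.3%, against 16.6%). CACGTG is its own reverse complement and the others were searched on both strands. Each motif was counted separately, so matches of different motifs may share bases. A match describes letters and is no evidence of binding, and no test was made of the shares.

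Genes of both directions had it. The E-box was present in 10 of 24 genes called higher in both conditions and in 4 of 7 genes called lower in either. Members with it had a median change of 0.61 in control and 0.84 in paused cells, and the 25 without it one of 0.42 and 0.54, computed from the authors' deposited tables. Among all genes with an E-box in that window, 16.7% were called higher and 27.3% lower in the authors' deposited control table, against 19.7% and 22.5% of those without. In the authors' deposited paused table these shares were 19.7% and 26.6%, against 20.6% and 23%.

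The sites nearest the start are shown for the genes called at least 2-fold higher in either condition, to let the flanks be compared; capitals mark the E-box and 10 bases are given on each side, 5′ to 3′ on the strand of the gene. The genes were chosen after their values were seen, and coordinates are those of the stretch shown, on GRCm38.p6. Fkbp6 and Stk31 have several listed starts, and each distance below is to a single start.
Fkbp6: gtctatcgatCACGTGccgtttctct
Stk31: gccggccaccCACGTGaccagggctg
Brdt: caggcacagtCACGTGgcagaccctg
Tex12: gcgagactgtCACGTGgctcgcgcgc
Tdrd9: acgaggctccCACGTGcatgcagggc
Rnf212: gcgcgagtctCACGTGggtcctcggt
The site of Fkbp6 (chr5:135350066-135350091, minus strand) begins 37 bases before the start, that of Stk31 (chr6:49395474-49395499, plus) 55 bases before it and that of Brdt (chr5:107331106-107331131, plus) 78 bases before it. Those of Tex12 (chr9:50561346-50561371, minus) and Tdrd9 (chr12:111971454-111971479, plus) begin 93 and 95 bases before it, and that of Rnf212 (chr5:108774984-108775009, minus) at the base numbered 29 from the start.

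For comparison, these are the sites of the 4 genes with an E-box that were called lower.
Tdrd1: gggctgcgcgCACGTGggagtaaact
Ddx4: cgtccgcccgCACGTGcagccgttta
Sycp3: gggcatggagCACGTGctaggaggcg
Syce2: tttcattcagCACGTGctcggggcgg
They begin 11 bases before the start in Tdrd1 (chr19:56826188-56826213, plus), 29 in Ddx4 (chr13:112652324-112652349, minus), 43 in Sycp3 (chr10:88459534-88459559, plus) and 88 in Syce2 (chr8:84872160-84872185, plus). By the starts used here, the stretches of genes that rose and of genes that fell lie at overlapping distances. Tdrd1 and Syce2 also have several listed starts, and their other starts would give other distances.

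Whole windows are printed for the 3 genes with the largest mean rise among those at least 2-fold higher in both conditions, and for Tex19.2, the one with the highest mean count among the genes called in neither. Capitals mark the E-box, and no E2F-type match was found in these windows.
Stra8: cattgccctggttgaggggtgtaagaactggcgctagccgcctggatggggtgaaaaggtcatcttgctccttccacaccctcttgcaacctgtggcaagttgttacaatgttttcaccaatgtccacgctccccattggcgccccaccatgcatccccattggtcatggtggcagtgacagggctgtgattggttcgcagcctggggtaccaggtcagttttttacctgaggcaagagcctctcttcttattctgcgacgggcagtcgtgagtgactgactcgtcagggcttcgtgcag
Fkbp6: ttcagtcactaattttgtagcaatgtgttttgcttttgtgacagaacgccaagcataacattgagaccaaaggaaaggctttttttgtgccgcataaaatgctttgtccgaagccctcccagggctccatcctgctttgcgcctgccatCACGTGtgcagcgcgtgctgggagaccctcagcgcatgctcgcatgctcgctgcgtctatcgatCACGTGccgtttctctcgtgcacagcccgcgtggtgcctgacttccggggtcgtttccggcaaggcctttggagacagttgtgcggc
Asz1: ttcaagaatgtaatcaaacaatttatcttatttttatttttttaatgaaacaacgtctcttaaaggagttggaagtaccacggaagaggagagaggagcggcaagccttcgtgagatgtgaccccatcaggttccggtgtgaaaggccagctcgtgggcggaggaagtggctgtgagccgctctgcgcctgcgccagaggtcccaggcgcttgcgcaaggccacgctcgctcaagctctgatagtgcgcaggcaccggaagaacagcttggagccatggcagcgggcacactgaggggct
Tex19.2: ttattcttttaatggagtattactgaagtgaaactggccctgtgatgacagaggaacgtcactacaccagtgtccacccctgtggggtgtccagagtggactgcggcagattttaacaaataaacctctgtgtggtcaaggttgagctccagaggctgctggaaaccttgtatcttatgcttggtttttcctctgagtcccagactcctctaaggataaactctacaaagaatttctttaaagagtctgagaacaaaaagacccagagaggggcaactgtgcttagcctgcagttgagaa
The window of Stra8 (chr6:34920698-34920997, plus strand) holds 10 CpG dinucleotides at 55.7% GC, no E-box and 2 matches to the receptor hexamer. That of Fkbp6 (chr5:135349995-135350294, minus strand, 1 of 2 listed starts) holds 21 CpG at 55% GC, with E-boxes beginning 101 and 37 bases before the start. The window of Asz1 (chr6:18109012-18109311, minus strand) holds 17 CpG at 54.3% GC and none of the 4 motifs. Tex19.2 (chr11:121118628-121118927, minus strand) has 2 CpG at 45.3% GC and none of the 4 motifs. The promoters of the 3 genes that rose most thus differ from each other in both CpG content and motifs.

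**Figure D5:**
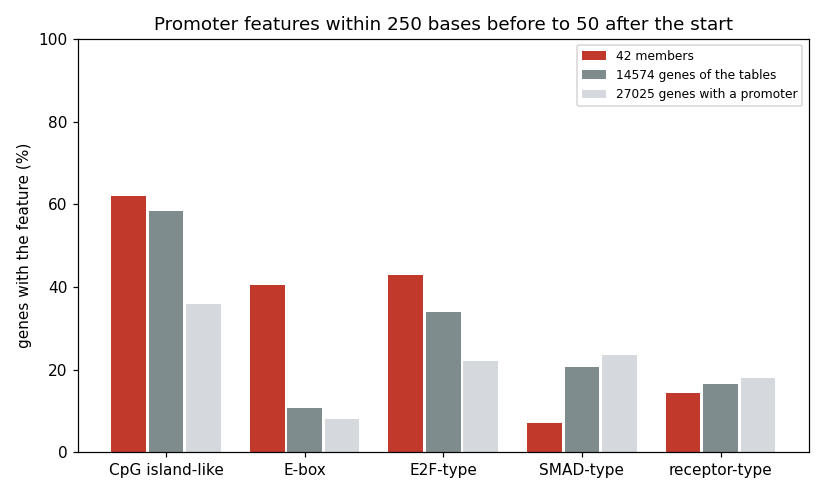
Share of genes whose promoter window (250 bases before to 50 after the start) has each feature, for the 42 members with a window, the genes of the results tables and all genes with a window; the motifs are the E-box, E2F-type, SMAD-type and nuclear receptor-type sequences spelled out in the text. The E-box bar of the members, 40.5%, is the one furthest from that of the genes of the tables, 10.7%.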

How the data were processed

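Per the labels, directional libraries were made from mRNA of live cells. The submitters' processing notes name FastQC, Trim Galore, HISAT2, featureCounts, DESeq2 and the build mm10, without roles or versions. The annotation and use of strand are not given in the sources used here, nor is whether both knockout lines entered each comparison. The authors deposited 2 results tables. Per the file headers, the signal is a mean of normalized counts over libraries, the change and its SE are log2 values, the statistic is a score (change over SE), and p-values and adjusted p-values follow. The depth per library is unknown, and no counts were fitted here. The labels do not say that replicates were separate cultures, so p-values may measure technical spread alone.

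Changes were read from the deposited tables as they stand. The test of the difference was run with Python 3.11.15, scipy 1.17.1 and pandas 2.3.3. On simulated tables with 200 of 19134 genes given a 2-fold difference it recovered 60.5%, and 5.47% of its calls were false. The simulated errors were drawn from the deposited SEs alone. These rates therefore check the computation and are not the error rate of the calls made here, where the statistic was spread more widely. Promoters are RefSeq windows on GRCm38.p6, the assembly also named mm10. Older symbols were matched through RefSeq synonyms.

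The members and lists were chosen with earlier results of these data known. Values in full are given for members called at least 2-fold, the 2 with the highest level per kb of each role group, and those whose change differs between conditions; in each further list, up to 3 of the called ones that moved furthest. Other members and list genes were added after their values were seen. The alternatives were an adjusted p under 0.01, a 2-fold minimum, a minimum mean of 5 ppm (230 and 221 normalized counts), equal summed counts, a statistic divided by its middle spread (its median absolute value over that of a standard normal; 2.76 in control cells, 2.80 in paused cells, 1.23 for the difference), a test against 1.2-fold, stricter CpG limits and the last 150 bases of the promoter window.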

Additional observations from a re-analysis of the deposited data

Results flagged for a closer look

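The change in knockout cells differed between the conditions, by a test of the difference itself, for 2 of 47 germline genes. For Dpep3 the paused change minus the control change was 1.079 (SE 0.273, adjusted p 0.0122), from 0.50 to 1.58 in the authors' deposited tables. For Hormad2 it was 0.508 (SE 0.136, adjusted p 0.0210), from 1.25 to 1.76 in the authors' deposited tables. Of all 19134 genes 1.44% were called by the same test. Neither call held at an adjusted p under 0.01 or against a difference of at most 1.2-fold. With the statistic of that test divided by its middle spread, the adjusted p was 0.208 for Dpep3 and 0.271 for Hormad2. Dpep3 also lay below the minimum mean of 5 ppm.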

How the results depend on the processing

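The counts of called germline genes in control and paused cells were 36 and 39. They stayed within 1.5 times of that with an adjusted p under 0.01 (33 and 33, against 30.9% and 32.3% of all genes). The same held with the abundance minimum (24 of 27 and 27 of 31, against 51.6% and 53% of genes above it). It also held with equal summed counts (37 and 39, against 39.8% and 41.1% of all genes). Equal summed counts turned 28 higher and 8 lower in control cells into 31 and 6. They moved to 8 and 15 with a 2-fold minimum (6.98% and 7.10% of all genes), to 19 and 24 against a change of at most 1.2-fold (10.6% and 10.6%), and to 7 and 12 with the scaled statistic (1.48% and 2.25%). The fallen genes numbered 8 and 3; with the scaled statistic 0 were called in either condition. The medians of 0.46 and 0.56 ranged from 0.38 to 0.51 and from 0.54 to 0.63.

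Of the 2 genes whose change differed between conditions, 1 was left with a 2-fold minimum (0.146% of all genes). None was left with an adjusted p under 0.01 (0.533%), with the scaled statistic (0.183%) or against 1.2-fold (0.01045%). Under those last settings 9, 7 and 1 genes of the list had an unadjusted normal p under 0.05. With the abundance minimum 2 were called among 31 genes, Hormad2 and Tdrd1 (0.53, adjusted p 0.0432), against 2.93% of all genes above the minimum. Dpep3 lay below the minimum. The cause of these moves was not tested. Of the values of the 24 genes given in full, 1 changed sign: the uncalled difference of Brdt, 0.00562, was -0.0143 with equal summed counts, where 36 rather than 38 of the 47 differences lay above 0.

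The share of CpG island-like promoters, 61.9%, was 40.5% with GC of at least 55% and a ratio of at least 0.75 (39.8% of the genes of the tables), 66.7% among genes higher in both conditions and 0% among the 3 called in neither. Within the last 150 bases of the window, the shares were 33.3% for CACGTG (6.72% of the genes of the tables), 28.6% for TCCCGC (23.3%), 0% for CAGACA (10.4%) and 7.14% for AGGTCA (8.06%).

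No paired analysis was possible because the tables hold no values per library, so fits with a replicate block or without single replicates were not run. The SEs are the only measure of precision, and genes with mean counts under 20 (Tex12, Rnf212, Figla, Nobox) have the widest ones.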

Other observations

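Retinoic acid is the inducer of Stra8 in the gonad, and 12 genes of its response and transport were looked at as well. The authors' deposited tables had 2 of them higher and 3 lower in control cells, and 5 higher and 3 lower in paused cells, with medians of -0.06 and 0.28. Of all genes, 19.5% were higher and 21.9% lower in control and 20.5% and 22% in paused cells, so the control counts are about those of any genes. Cyp26a1, the enzyme that breaks down retinoic acid and a direct target of its receptors, fell by 0.53 (SE 0.14) in control and by 0.86 (SE 0.29) in paused cells of the authors' deposited tables. Dhrs3, another induced enzyme, fell by 1.17 (SE 0.26) in paused cells and was uncalled at -0.26 (SE 0.21) in control cells of the authors' deposited tables. Stra6, a retinol transporter, rose by 0.68 (SE 0.18) in paused cells of the authors' deposited table. Rxra, a receptor partner named after its values were seen, rose by 0.65 (SE 0.10) and 0.59 (SE 0.06) in the authors' deposited tables. The part of retinoic acid in the change of Stra8 was not tested.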
